A study of Mus musculus with 16 samples.

Results

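The interferon regulatory factor (IRF) genes Irf1, Irf2, Irf3, Irf4, Irf5, Irf7, Irf8 and Irf9, together with Batf2, were followed in RNA-seq of KPC1199 cells. They were chosen by gene symbol, and all 9 symbols were found once in each of the count tables, among 56980 features in the IFNγ experiment and 55738 in the untreated experiment. KPC1199 is a mouse pancreatic cancer line from a genetically engineered tumor model in which Pdx-Cre acts in the pancreas. In the IFNγ experiment, cells carrying a control guide RNA (sgCtrL) or a guide against Sin3B (Sin3Bsg1) were sequenced without IFNγ or with 10 ng/ml IFNγ for 24 h, in 3 libraries per group. In the untreated experiment the same genotypes were sequenced with no stimulus, in 2 libraries per group. All cells had been transduced with a lentiviral Cas9 vector and selected with puromycin, and the knockout group rests on a single guide. The labels do not say whether libraries came from separate cultures, so p-values measure only the spread between these libraries.

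IRF proteins share a DNA-binding domain that reads GAAA repeats in interferon-stimulated response elements (ISREs). IFNγ signals through its receptor and JAK kinases to STAT proteins, which bind gamma-activated sites (GAS), and Irf1 is a classical early target of this route. Irf1 activates antigen presentation and chemokine genes, and Irf2 binds the same sites and can oppose it. Irf3, Irf5 and Irf7 rest in the cytoplasm until kinases downstream of nucleic acid sensors or Toll-like receptors phosphorylate them. Irf9 is the DNA-binding subunit of the ISGF3 complex, which also holds STAT proteins. Irf4 and Irf8 are best known from lymphoid and myeloid cells, where they act with partners such as the ETS factor Spi1. Batf2 is a basic leucine zipper protein of the AP-1 superfamily that can cooperate with Irf1. Sin3B is a scaffold of a histone deacetylase corepressor complex.

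Promoters of the members were searched for these sites because STAT and IRF proteins bind them. RefSeq windows (GRCm38.p6, 250 bases before to 50 bases after a transcription start) were found for 8 of the 9 members, in 11 windows, with none used for Batf2. A GAS was taken as TTCNNNGAA and an ISRE core as GAAANNGAA, on both strands. Of 32851 promoters in the table, 8.30% held the first and 8.56% the second. A GAS lay in a window of Irf1, Irf2 and Irf8, and Irf2 was the single member with an ISRE core. The bases before the start are shown for these 3 genes and for Irf7, which had no match and whose RNA level, given further on, rose with IFNγ. Capitals mark a match.
Irf1, chr11:53769764-53770013, plus strand: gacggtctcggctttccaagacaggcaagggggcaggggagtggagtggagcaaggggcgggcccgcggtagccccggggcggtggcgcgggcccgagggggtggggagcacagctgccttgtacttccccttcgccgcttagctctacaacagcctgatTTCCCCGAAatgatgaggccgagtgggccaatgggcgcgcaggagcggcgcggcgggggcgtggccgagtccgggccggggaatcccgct
Irf2, chr8:46739495-46739744, plus strand: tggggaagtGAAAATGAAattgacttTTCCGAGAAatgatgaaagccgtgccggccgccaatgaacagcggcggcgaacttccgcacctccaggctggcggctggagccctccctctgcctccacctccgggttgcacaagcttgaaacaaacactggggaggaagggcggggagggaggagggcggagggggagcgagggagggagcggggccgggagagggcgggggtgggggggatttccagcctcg
Irf8, chr8:120736108-120736357, plus strand: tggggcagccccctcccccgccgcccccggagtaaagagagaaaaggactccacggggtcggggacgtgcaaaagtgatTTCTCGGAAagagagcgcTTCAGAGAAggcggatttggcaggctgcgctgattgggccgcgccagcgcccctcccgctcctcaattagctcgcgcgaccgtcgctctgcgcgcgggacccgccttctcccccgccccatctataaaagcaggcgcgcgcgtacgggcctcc
Irf7, chr7:141266425-141266674, minus strand: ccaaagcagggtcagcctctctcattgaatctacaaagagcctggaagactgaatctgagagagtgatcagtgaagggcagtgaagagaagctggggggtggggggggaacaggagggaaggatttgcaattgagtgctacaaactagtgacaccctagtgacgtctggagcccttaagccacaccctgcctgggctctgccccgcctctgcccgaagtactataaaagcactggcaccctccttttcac
The GAS of Irf1 spans bases -90 to -82 from the start. In Irf2 the ISRE core at -241 to -233 lies close to the GAS at -224 to -216, without overlapping it. Irf8 held 2 GAS matches, at -171 to -163 and -153 to -145. A match describes letters, and binding was not measured in these files.

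In GENCODE vM39 (GRCm39) Irf1 lies at chr11:53660812-53669200, Irf2 at chr8:47192222-47300501, Irf3 at chr7:44647033-44652272, Irf7 at chr7:140842619-140846398, Irf9 at chr14:55841028-55847812 and Batf2 at chr19:6191013-6222506. Irf4 lies at chr13:30933209-30950959, Irf5 at chr6:29526276-29541870 and Irf8 at chr8:121463096-121485659. Most of them overlap another annotated gene. The Irf1 locus lies within an antisense lncRNA, Gm12216, Irf2 overlaps antisense lncRNAs, Irf3 overlaps Bcl2l12 and Scaf1 on the opposite strand, Irf7 overlaps Phrf1, and Irf9 shares 282 bases with Rnf31 on the same strand. Batf2 overlaps Arl2 on the opposite strand and the processed pseudogene Gm5510 on its own strand. The strand setting of the counting is not given in the sources used here, so reads from overlapping stretches cannot be told apart.

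Libraries held 18128055 to 27056903 counts in the IFNγ experiment and 29683181 to 32311721 in the untreated experiment. Sin3b, the targeted gene, was at 88.4 to 95.5 CPM (counts per total count of the library, scaled by TMM factors) in sgCtrL without IFNγ and at 38.6 to 39.4 CPM in Sin3Bsg1 without IFNγ. It was lower in Sin3Bsg1 in all 3 settings, without overlap between genotypes (edgeR log2 fold change -1.24, -1.22 and -1.28 without IFNγ, with IFNγ and untreated). Replicate 1 of sgCtrL with IFNγ stood apart from its group, and the members' log2 fold changes without it are given beside those that use it. Levels, ratios, shares and the gene lists are given with that library included. Among 12 leukocyte markers, 9 to 11 had at most 3 counts in every library of a group, and Ptprc, which defines leukocytes, had 0 to 3 counts in every library. Their summed level was 4.58 to 7.35 CPM, most of it Cd68, a lysosomal protein abundant in macrophages, which had 81 to 176 counts per library and was called in none of the comparisons. All 7 ductal and epithelial markers were detected, and their summed level was higher in Sin3Bsg1 than in sgCtrL in each setting, at 3420 to 3533 against 3179 to 3209 CPM without IFNγ, 4329 to 4566 against 3282 to 3827 CPM with IFNγ, and 6308 to 6357 against 4698 to 4724 CPM untreated. The summed level of 6 fibroblast markers was lower in Sin3Bsg1 in each setting, at 223 to 234 against 261 to 268 CPM without IFNγ, 165 to 177 against 189 to 191 CPM with IFNγ, and 30.0 to 33.1 against 99.4 CPM untreated. What part these shifts have in the genotype differences of the IRF genes was not tested. In these bulk samples, fewer cells with a transcript and less of it per cell cannot be told apart.

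Without IFNγ, Irf1 was the most abundant member per length, and 5 members were clearly expressed. In sgCtrL without IFNγ mean levels were 78.0 TPM (counts per base of gene length, scaled to a common total in each library) for Irf1, 33.3 TPM for Irf2, 30.1 TPM for Irf3, 9.43 TPM for Irf9 and 2.16 TPM for Irf7. The libraries of Irf2 and Irf3 overlapped, and those of every other neighboring pair in this order were separate. The order of these 5 was the same in Sin3Bsg1 without IFNγ and in both untreated groups.

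Irf4, Irf5 and Irf8 were not expressed at a level these libraries could measure. Irf4 had 0 to 3 counts, Irf5 0 to 2 and Irf8 0 to 1 in the 12 libraries of the IFNγ experiment, and all 3 genes were at 0 in all 4 untreated libraries. With a floor of 3 counts, each was at or below 0.113 to 0.162 CPM in the IFNγ experiment and below 0.0927 to 0.101 CPM in the untreated experiment, limits that cover counting error only. IFNγ brought none of them above the floor, including Irf8 with its GAS matches. Spi1, a DNA-binding partner of Irf4 and Irf8, had at most 2 counts in a library.

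Batf2 was silent without the cytokine. It had 0, 1 and 0 counts in the 3 sgCtrL libraries without IFNγ, 0 in all 3 Sin3Bsg1 libraries without IFNγ, 0 in both untreated sgCtrL libraries, and 2 and 1 counts in the untreated Sin3Bsg1 libraries. No genotype difference is given for levels at or under the floor.

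With IFNγ, Irf1, Irf2, Irf7 and Irf9 rose in both genotypes, Batf2 was detected where it had been at or under the floor, and Irf3 showed no change that passed the test. Of the 5 IRF genes that passed the filter on low counts, 4 were higher with IFNγ at an adjusted p under 0.05 (edgeR quasi-likelihood test, adjusted over all 14913 genes tested) in sgCtrL and 4 in Sin3Bsg1, and none was lower. Over all genes tested, 15.7% were called higher with IFNγ in sgCtrL and 16.1% in Sin3Bsg1. The median log2 fold change of these 5 was 2.26 in sgCtrL and 2.39 in Sin3Bsg1, and that of all genes was -0.00063 and 0.0052. Batf2 passed the filter through its IFNγ groups alone and is therefore left out of this count and median. Of the 3 fibroblast markers tested, Acta2 rose with IFNγ, from 0.314 to 5.67 CPM in sgCtrL and from 0.446 to 5.22 CPM in Sin3Bsg1. Pdgfra and Pdgfrb fell in both genotypes. Of the 7 epithelial markers tested, 1 was called higher and 4 lower with IFNγ in sgCtrL, and 2 higher and 3 lower in Sin3Bsg1. Krt18 led the rises at log2 fold changes of 0.72 in sgCtrL and 0.94 in Sin3Bsg1. Sox9 led the falls at -0.57 and -0.60.

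Irf1, an activator of antigen presentation and chemokine genes, was at 75.6, 75.1 and 77.2 CPM in sgCtrL without IFNγ. With IFNγ it was at 861, 880.0 and 856 CPM. In Sin3Bsg1 it was at 75.8, 78.0 and 75.5 CPM without IFNγ and at 897, 902 and 915 CPM with IFNγ. The stimulated libraries lay far above the unstimulated ones in both genotypes. Without replicate 1 of sgCtrL with IFNγ, the log2 fold changes in sgCtrL were 3.505 for Irf1, 0.92 for Irf2, 3.85 for Irf7 and 2.26 for Irf9, and all 4 passed the edgeR test. With all libraries the rise of Irf1 was 11.4-fold in sgCtrL (95% interval 10.7 to 12.1, edgeR adjusted p = 1.7e-18) and 11.8-fold in Sin3Bsg1 (11.1 to 12.6, edgeR adjusted p = 1.3e-18).

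Irf2, the factor that shares Irf1 sites, rose less. It was at 35.1, 38.0 and 40.8 CPM in sgCtrL without IFNγ and 71.1, 74.3 and 70.3 CPM with IFNγ, a 1.89-fold rise (1.75 to 2.06, edgeR adjusted p = 2.3e-09). In Sin3Bsg1 its 38.5, 40.2 and 38.5 CPM went to 69.9, 70.0 and 68.9 CPM, a 1.78-fold rise (1.64 to 1.93, edgeR adjusted p = 6.4e-09). The ratio of Irf1 to Irf2, per length, was therefore 2.35 ± 0.16 (SD, n = 3) in sgCtrL without IFNγ and 14.1 ± 0.21 with IFNγ, and 2.29 ± 0.016 and 15.2 ± 0.29 in Sin3Bsg1. In the untreated experiment it was 1.52 to 1.59 in sgCtrL and 1.41 to 1.51 in Sin3Bsg1, a level that cannot be set against the other table because the tables were made separately.

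Irf7, which amplifies interferon production once phosphorylated, rose from a low base. It was at 1.67, 2.50 and 1.496 CPM in sgCtrL without IFNγ, from 28 to 60 counts per library, and at 30.9, 27.7 and 28.5 CPM with IFNγ. In Sin3Bsg1 it was at 2.43, 3.48 and 2.58 CPM without IFNγ and 32.8, 34.7 and 33.3 CPM with IFNγ. All stimulated libraries lay above all unstimulated ones. The rise was 14.97-fold in sgCtrL (12.2 to 18.4, edgeR adjusted p = 2.4e-12) and 11.9-fold in Sin3Bsg1 (9.89 to 14.3, edgeR adjusted p = 1.7e-12).

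Irf9, the ISGF3 subunit, was at 13.0, 13.0 and 12.1 CPM in sgCtrL without IFNγ and 60.4, 63.6 and 59.4 CPM with IFNγ. In Sin3Bsg1 it was at 12.4, 14.96 and 14.4 CPM without IFNγ and 75.6, 72.3 and 71.3 CPM with IFNγ. The rise was 4.80-fold in sgCtrL (4.33 to 5.32, edgeR adjusted p = 3.6e-13) and 5.26-fold in Sin3Bsg1 (4.76 to 5.81, edgeR adjusted p = 9.7e-14). The 3 stimulated Sin3Bsg1 libraries lay above the 3 stimulated sgCtrL libraries.

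Batf2 went from next to no reads to a measured level in every stimulated library. With IFNγ it had 821, 1031 and 854 counts in sgCtrL, or 40.8, 38.9 and 38.4 CPM, and 1458, 1425 and 1293 counts in Sin3Bsg1, or 60.9, 57.5 and 55.5 CPM. Set against the floor of 3 counts in a library, the level with IFNγ was 244 times the floor in sgCtrL and at least 444-fold higher in Sin3Bsg1, where no read was counted without IFNγ. Against the single count in the unstimulated sgCtrL libraries the ratio of pooled CPM was 2408, with a 95% exact counting interval of 432 to 95132, and for Sin3Bsg1 the lower limit of the same interval was 1140. These values do not order the genotypes by the size of the rise. The edgeR test of this rise is not given, since the gene passed the filter on low counts through its IFNγ groups alone.

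Irf3, which is regulated mainly by phosphorylation, did not separate the stimulated from the unstimulated libraries. It was at 21.0, 19.1 and 18.7 CPM in sgCtrL without IFNγ, 22.4, 16.9 and 21.6 CPM with IFNγ, and 20.2 to 23.7 CPM in the 6 Sin3Bsg1 libraries. The groups overlapped, and the fold change with IFNγ was 1.03 in sgCtrL (0.891 to 1.20) and 1.03 in Sin3Bsg1 (0.898 to 1.19), with edgeR adjusted p of 0.77 and 0.76. Without replicate 1 of sgCtrL with IFNγ the log2 change in sgCtrL was -0.041.

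**Figure D1:**
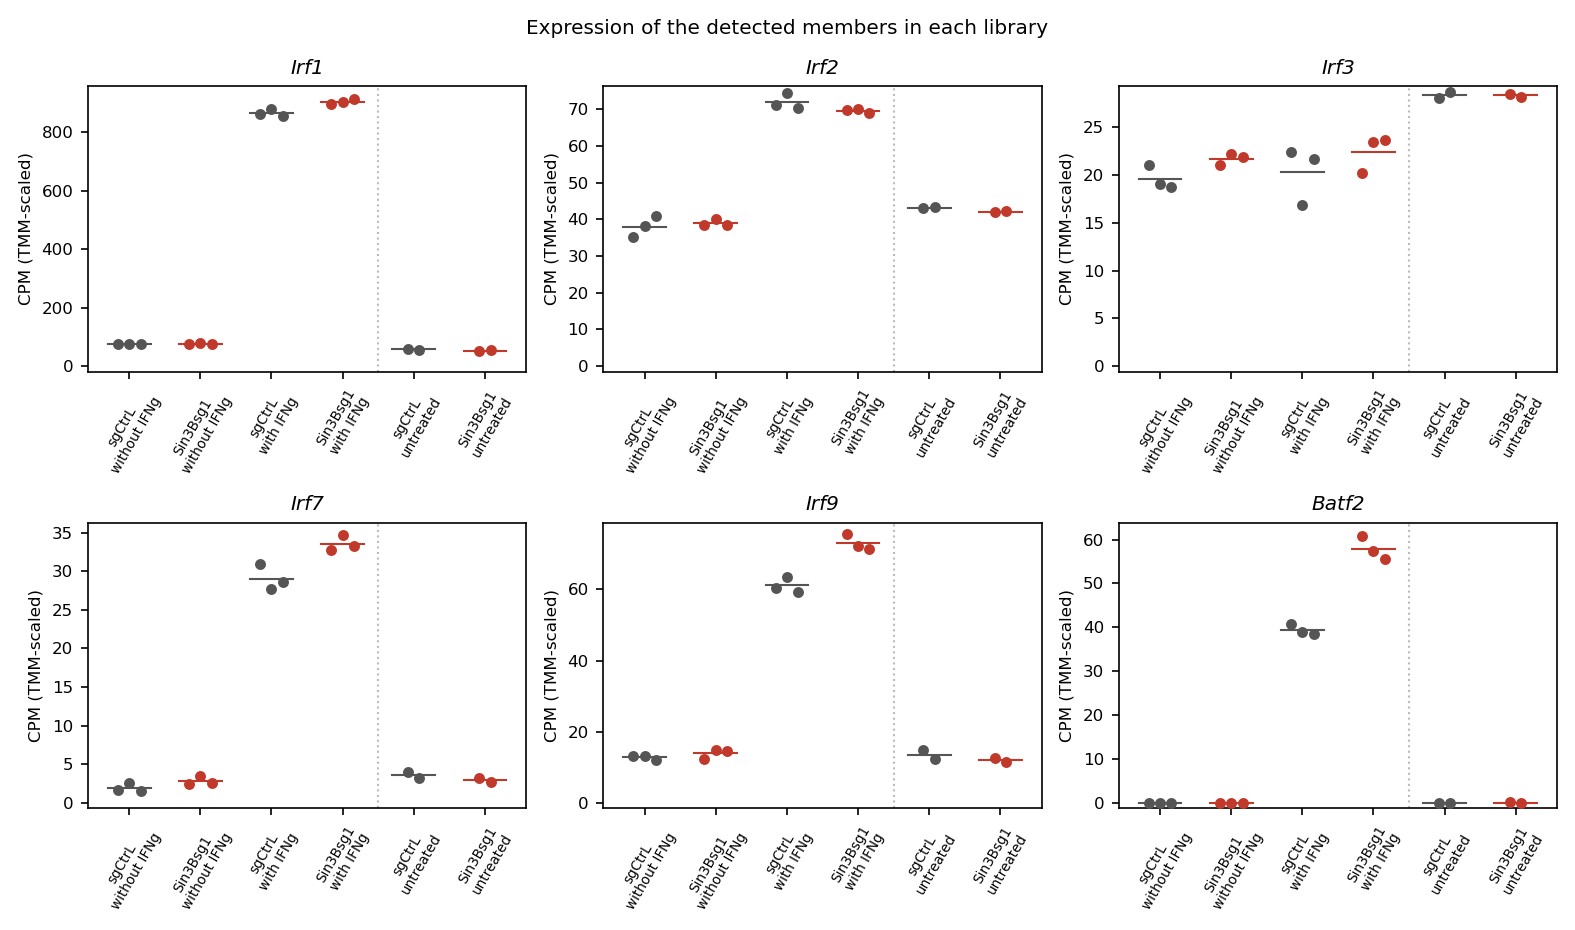
Level of the 6 detected members in CPM (y axis from 0 in each panel) in every library. Points are libraries, horizontal lines are group means, gray is sgCtrL and red is Sin3Bsg1, and the dotted line separates the IFNγ experiment from the untreated experiment. Irf1, Irf2, Irf7, Irf9 and Batf2 are higher in the IFNγ groups, Irf3 is not, and the red points of Batf2 (55.5 to 60.9 CPM) and Irf9 lie above the gray ones with IFNγ.

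**Figure D2:**
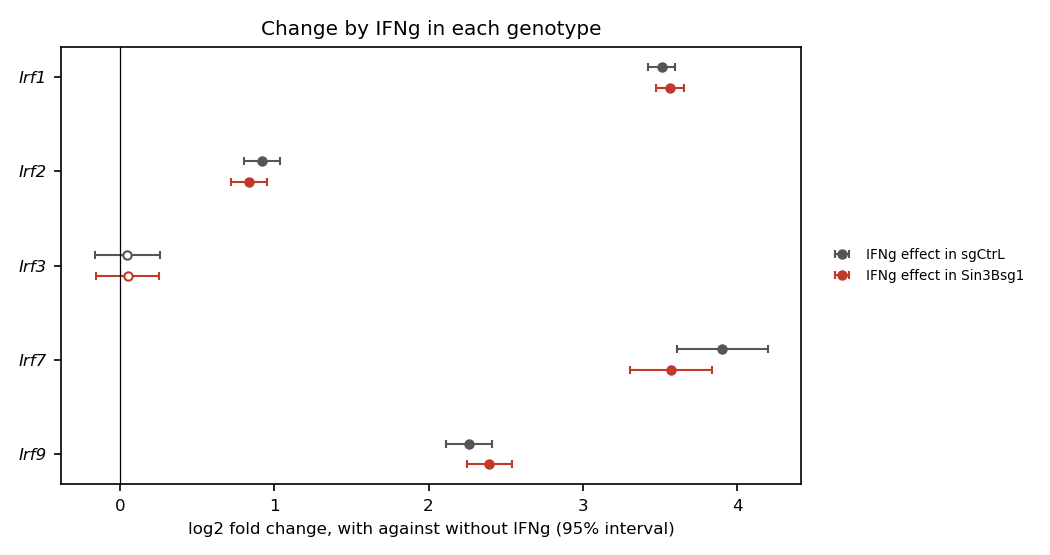
Log2 fold change with against without IFNγ (x axis) for the 5 IRF genes tested, with 95% intervals from edgeR, in sgCtrL (gray) and Sin3Bsg1 (red). Filled points passed an adjusted p of 0.05, open points did not. The intervals of the 2 genotypes overlap for every gene, from 3.90 and 3.57 for Irf7 to 0.046 and 0.049 for Irf3, and Batf2 is left out because its unstimulated level is at the floor.

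The makeup of the family changed with IFNγ. The summed level of the 9 members was 153 ± 2.2 TPM (SD, n = 3) in sgCtrL without IFNγ and 1065 ± 6.96 TPM with IFNγ, and 162 ± 4.7 and 1147 ± 32.8 TPM in Sin3Bsg1. Irf1 made up 51.0% of this sum in sgCtrL without IFNγ and 79.1% with IFNγ, while Irf2 went from 21.8 to 5.62% and Irf3 from 19.7 to 2.77%. In Sin3Bsg1 Irf1 went from 49.2 to 76.9%. Batf2 made up 5.52% in stimulated sgCtrL and 7.56% in stimulated Sin3Bsg1. The order per length in stimulated sgCtrL was Irf1 (842 TPM), Irf2 (59.8 TPM), Batf2 (58.8 TPM), Irf9 (42.9 TPM), Irf7 (31.5 TPM) and Irf3 (29.5 TPM). The libraries of Irf2 overlapped those of Batf2, and those of Irf7 overlapped those of Irf3. In stimulated Sin3Bsg1 the order was Irf1 (882 TPM), Batf2 (86.8 TPM), Irf2 (58.0 TPM), Irf9 (51.4 TPM), Irf7 (36.5 TPM) and Irf3 (32.6 TPM), with no overlap between neighbors, so that Batf2 stood above Irf2 there. On the CPM scale, which takes no account of length, Irf9 stood above Batf2 in both stimulated groups.

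**Figure D3:**
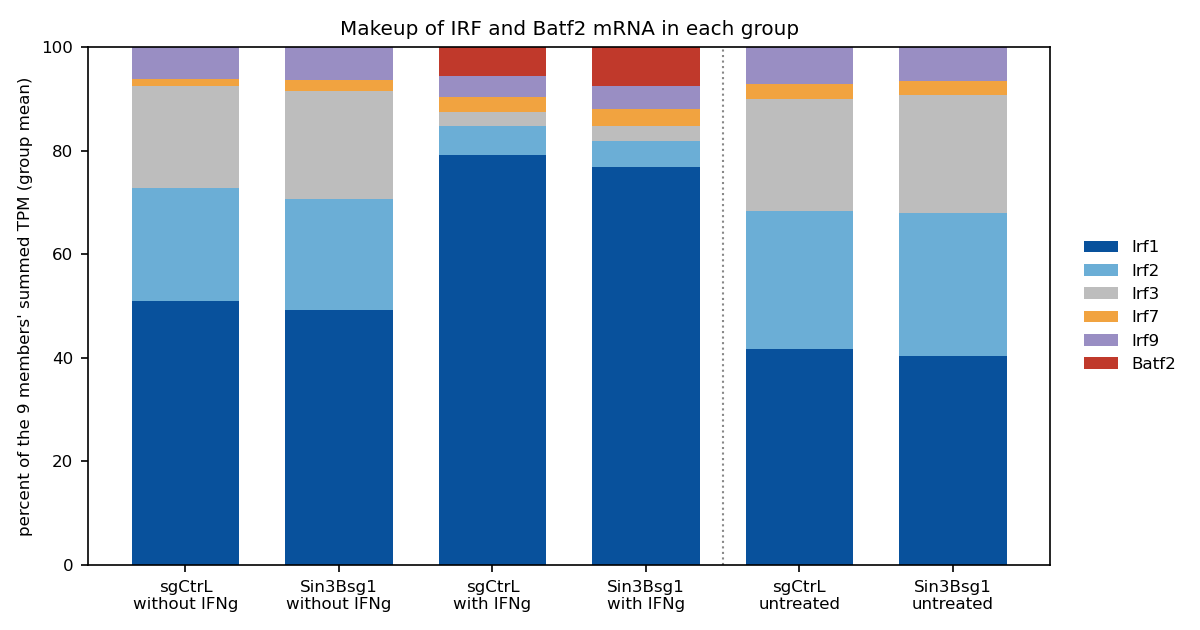
Mean share of each member in the summed TPM of the 9 members (y axis, percent) in the 6 groups, without error bars. Dark blue is Irf1, light blue Irf2, gray Irf3, orange Irf7, purple Irf9 and red Batf2, and the dotted line separates the experiments. Irf1 takes 49.2 to 51.0% without IFNγ, 76.9 to 79.1% with IFNγ and 40.3 to 41.7% in the untreated groups. Batf2 takes 5.52 to 7.56% with IFNγ and at most 0.056% in the other groups. Shares cannot be compared across the dotted line, because the counts were made separately and the deposited length of Irf3 differs.

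The genotypes were then compared with IFNγ present. Batf2 and Irf9 were higher in Sin3Bsg1, and the other 4 members tested did not pass the threshold. Thus 2 of 6 members tested, Batf2 included, were called higher and none lower, where 8.62% of all genes tested were called higher. The median log2 fold change of the members was 0.18 and that of all genes 0.0036. With Batf2 left out, the median was 0.15 and Irf9 was the single member called. Batf2 was 1.47-fold higher (1.33 to 1.62), a log2 fold change of 0.56 (SE 0.066, edgeR adjusted p = 4.5e-05). Irf9 was 1.19-fold higher (1.09 to 1.30), a log2 fold change of 0.26 (SE 0.060, edgeR adjusted p = 0.0073). In both genes each Sin3Bsg1 library lay above each sgCtrL library. Without replicate 1 of sgCtrL with IFNγ the log2 fold changes were 0.60 for Batf2 and 0.26 for Irf9. Epithelial markers moved in the same comparison, with 6 of 7 higher in Sin3Bsg1, led by Krt7, a keratin of simple epithelia, at a log2 fold change of 1.15 (edgeR adjusted p = 1.2e-07). Of 3 fibroblast markers tested, Pdgfrb was called higher (0.27) and Pdgfra lower (-0.21).

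Irf7 was 1.16-fold higher in stimulated Sin3Bsg1 (1.005 to 1.33), with separate libraries and an edgeR adjusted p of 0.16. Irf1 differed by 1.04-fold (0.989 to 1.10, edgeR adjusted p = 0.29), although its Sin3Bsg1 libraries also lay above its sgCtrL libraries. Irf3 differed by 1.11-fold (0.962 to 1.28, edgeR adjusted p = 0.34) and Irf2 by 0.967-fold (0.895 to 1.05, edgeR adjusted p = 0.61). These intervals leave out a difference of the size seen for Batf2. Without replicate 1 of sgCtrL with IFNγ the log2 fold change of Irf7 was 0.27 in place of 0.21 (edgeR adjusted p = 0.056), that of Irf3 0.24 in place of 0.15 (edgeR adjusted p = 0.093), that of Irf1 0.072 (edgeR adjusted p = 0.15) and that of Irf2 -0.043 (edgeR adjusted p = 0.65).

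Without IFNγ no member tested was called different between genotypes in the IFNγ experiment, where 17.2% of all genes tested were called in either direction. One member had an unadjusted p under 0.05. This was Irf7, 1.46-fold higher in Sin3Bsg1 (1.11 to 1.91), with an edgeR adjusted p of 0.058. Its libraries touched, since the highest of sgCtrL (2.50 CPM) lay above the lowest of Sin3Bsg1 (2.43 CPM). The call depended on the libraries and the method. The adjusted p was 0.0100 without sgCtrL without IFNγ replicate 2, where the log2 fold change was 0.83 in place of 0.54. It was 0.037 without sgCtrL with IFNγ replicate 1, 0.049 without Sin3Bsg1 without IFNγ replicate 1, 0.019 with no filter on low counts and 0.029 with the DESeq2 Wald test. Irf1 differed by 1.006-fold (0.949 to 1.07), Irf2 by 1.03-fold (0.946 to 1.12), Irf3 by 1.11-fold (0.958 to 1.28) and Irf9 by 1.09-fold (0.973 to 1.22), with edgeR adjusted p from 0.31 to 0.92.

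In the untreated experiment 5 members were tested and none was called, where 30.7% of all 14820 genes tested were called in either direction. All 5 log2 fold changes were below 0 here, from -0.29 for Irf7 to -0.0024 for Irf3, and above 0 without IFNγ in the other experiment, a difference that was not tested. Irf1 was at 58.7 and 56.4 CPM in sgCtrL and 50.4 and 54.7 CPM in Sin3Bsg1, a fold of 0.913 (0.848 to 0.983, edgeR adjusted p = 0.059). It was the single member with an unadjusted p under 0.05, and DESeq2 called 0 members. Its libraries were separate, and the call changed with the filter and the libraries, with an adjusted p of 0.049 when at least 10 counts in every library were required and 0.012 without Sin3Bsg1 untreated replicate 2. Irf7 was at 4.002 and 3.18 CPM against 3.18 and 2.70 CPM in Sin3Bsg1 (edgeR adjusted p = 0.34), and Irf9 at 14.8 and 12.3 CPM against 12.5 and 11.3 CPM (edgeR adjusted p = 0.22). Irf2 was at 43.1 and 43.3 CPM against 41.9 and 42.2 CPM, and Irf3 at 28.0 and 28.7 CPM against 28.5 and 28.1 CPM. The deposited length of Irf3 was 1429 bases in the IFNγ table and 2031 bases in the untreated table, so its levels per length cannot be compared between them.

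**Figure D4:**
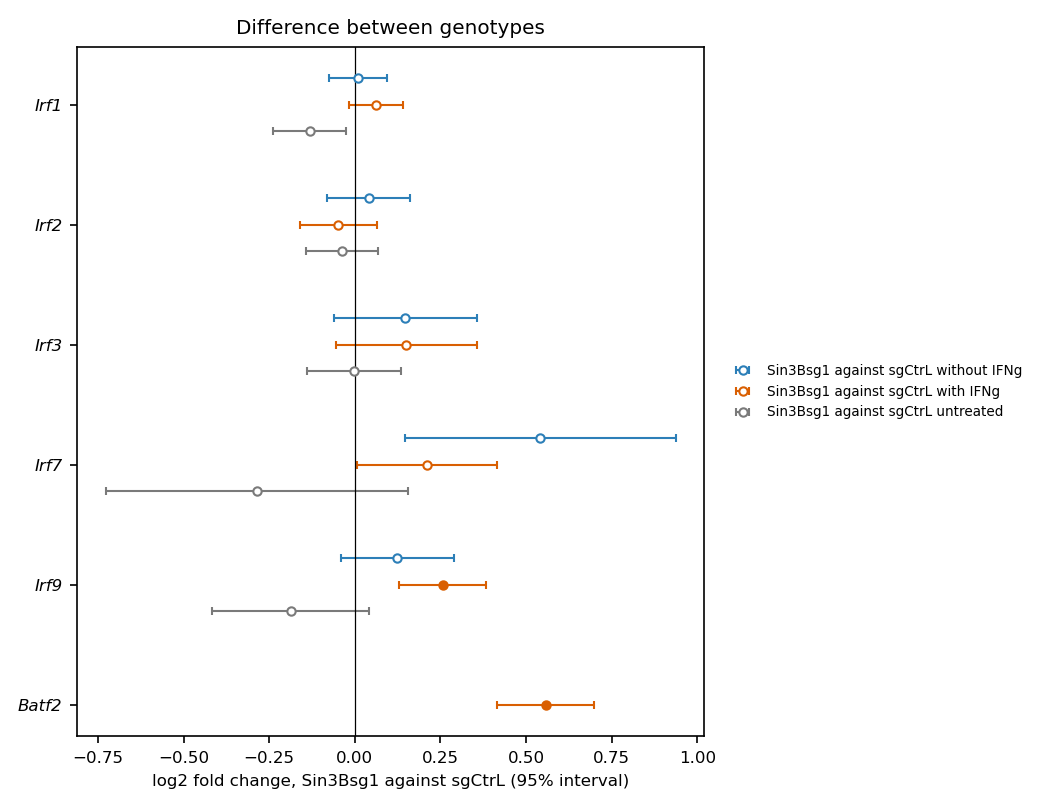
Log2 fold change of Sin3Bsg1 against sgCtrL (x axis) with 95% intervals from edgeR, without IFNγ (blue), with IFNγ (orange) and in the untreated experiment (gray). Filled points passed an adjusted p of 0.05, open points did not. The filled points are Irf9 (0.26) and Batf2 (0.56) with IFNγ, and Batf2 has no value in the other settings because it was at the floor.

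Whether the response to IFNγ differed between genotypes was tested with the interaction term, which edgeR and DESeq2 called for 0 members and which had an unadjusted p under 0.05 in 0. Over all genes tested, 0.114% were called. The ratio of the Sin3Bsg1 rise to the sgCtrL rise was 1.04 for Irf1 (0.959 to 1.12), 0.941 for Irf2 (0.839 to 1.05), 1.002 for Irf3 (0.817 to 1.23), 0.795 for Irf7 (0.584 to 1.08) and 1.10 for Irf9 (0.949 to 1.27), with edgeR adjusted p of at least 0.98. Without replicate 1 of sgCtrL with IFNγ the log2 interaction values were 0.053 for Irf1, -0.094 for Irf2, 0.082 for Irf3, -0.28 for Irf7 and 0.13 for Irf9, with edgeR adjusted p of at least 0.76. The higher Irf9 level in stimulated Sin3Bsg1 was thus not shown to be a difference in response. For Batf2 the term has no interpretable size, because both unstimulated groups are at or under the floor. The comparisons in the IFNγ experiment share libraries with each other.

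Partners and upstream factors of the IRF proteins were examined as lists. Over all 14913 genes tested, 2344 were called higher and 2168 lower with IFNγ in sgCtrL, and 2396 and 1836 in Sin3Bsg1. Between genotypes, 1177 were called higher in Sin3Bsg1 and 1391 lower without IFNγ, and 1286 and 1178 with IFNγ. Untreated, 2227 of 14820 were called higher and 2322 lower. Whether any list here or below differed from all genes was not tested, and its counts are not read as a trait of the list. Of 13 partner genes 8 were tested, and with IFNγ 2 were called higher and 1 lower in sgCtrL, and 2 higher and 2 lower in Sin3Bsg1. Stat2, the ISGF3 subunit that pairs with Irf9, had a log2 fold change of 3.82 in sgCtrL (SE 0.099, edgeR adjusted p = 3.0e-14) and 3.89 in Sin3Bsg1 (SE 0.097, edgeR adjusted p = 1.8e-14). Irf2bpl, a gene related to the Irf2-binding corepressors, fell by 0.21 and by 0.34 on the log2 scale. The median of the list was 0.15 in sgCtrL and -0.090 in Sin3Bsg1. Jun, an AP-1 subunit, was the single partner called between genotypes in the IFNγ experiment. It was higher in Sin3Bsg1 at a log2 fold change of 0.58 without IFNγ (SE 0.075, edgeR adjusted p = 4.7e-05) and 0.67 with IFNγ (SE 0.065, edgeR adjusted p = 2.9e-06). In the untreated experiment 2 of 9 partners tested were higher in Sin3Bsg1, led by Jun at 0.36, and 2 were lower, led by Batf3 at -0.98 (edgeR adjusted p = 0.048).

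Of 17 genes of the sensors, adaptors and kinases upstream of Irf3, Irf5 and Irf7, 15 were tested. With IFNγ 4 rose and 1 fell in sgCtrL, and 5 rose and 2 fell in Sin3Bsg1. Ifih1, the RNA sensor MDA5, led the rises at a log2 fold change of 2.80 (SE 0.094) in sgCtrL and 2.72 (SE 0.089) in Sin3Bsg1. Irak4, a kinase of the Toll-like receptor pathway, led the falls in sgCtrL at -0.25, and Ikbke, a kinase of Irf3 and Irf7, in Sin3Bsg1 at -0.52. Between genotypes the DNA-sensing adaptor Sting1 was the lowest called gene of the list in all 3 settings. It fell by 0.67 without IFNγ, by 0.53 with IFNγ and by 1.01 untreated on the log2 scale. In these settings 1, 1 and 0 genes of the list were called higher in Sin3Bsg1 (Ikbke without IFNγ at 0.48 and Myd88 with IFNγ at 0.26) and 2 were called lower in each. Neither the partners nor the upstream genes held a gene called for the interaction by edgeR or DESeq2, with 0 partners and 2 upstream genes at an unadjusted p under 0.05.

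No type I or type III interferon gene was expressed at a level that passed the filter in the IFNγ experiment. Of 19 such genes in the table, 17 to 19 had at most 3 counts in every library of a group, and the most counted one, Ifnz, had up to 9 counts in the IFNγ experiment and up to 12 in the untreated one. Their summed level was 0.0755 to 0.323 CPM with IFNγ and 0.0430 to 0.539 CPM without it.

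Genes known as targets of the members were counted as well. All 16 genes on a list of Irf1 targets were called higher with IFNγ in both genotypes. At or under the floor without IFNγ were 2 of them in sgCtrL and 2 in Sin3Bsg1. A gene that passed the filter on low counts through its IFNγ groups alone could only be called higher. The count of 16 therefore partly reflects the filter. The median log2 fold change was 6.02 in sgCtrL and 6.73 in Sin3Bsg1, or 6.02 and 6.65 with genes at or under the floor set to their bound. Cxcl9, a T cell attracting chemokine, had the largest fitted change, which rests on groups at 0. It had 0 counts in every library without IFNγ and reached 33.1 ± 2.34 CPM (SD, n = 3) in sgCtrL and 63.3 ± 2.09 CPM in Sin3Bsg1, at least 205-fold and 486-fold higher than the floor. Between genotypes with IFNγ 5 of the 16 were higher in Sin3Bsg1 and 2 lower, a median of 0.10. Ciita, the master regulator of MHC class II genes, led the rises at 1.14 (SE 0.20, edgeR adjusted p = 0.00089) and the tryptophan-degrading enzyme Ido1 the falls at -0.71 (SE 0.096, edgeR adjusted p = 7.6e-05). Without IFNγ 4 were higher, led by the immunoproteasome subunit Psmb9 at 1.53, and 3 lower, led by the MHC class I regulator Nlrc5 at -0.92. In the untreated experiment 10 were tested, with 1 higher, the cytokine Il15 at 1.33, and 3 lower, led by Cd274 at -0.55. Cd274, which encodes PD-L1, was the single target that edgeR called for the interaction, at 0.47 (SE 0.084, edgeR adjusted p = 0.045). DESeq2 called 3 targets for it, and 5 had an unadjusted p under 0.05 with edgeR. The call of Cd274 was kept in 5 of 17 alternatives, with adjusted p from 0.0012 to 0.25.

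Of 17 ISGF3 targets 16 were tested, and all 16 were higher with IFNγ in both genotypes. At or under the floor without IFNγ were 1 of the 16 in sgCtrL and 3 in Sin3Bsg1, so this count too partly reflects the filter. The median log2 fold change was 5.65 in sgCtrL and 5.70 in Sin3Bsg1, or 5.43 and 4.94 with genes at or under the floor set to their bound. Ifi44 had the largest fitted change, from a base near 0. It was at 24.3 ± 1.34 CPM (SD, n = 3) in stimulated sgCtrL and 28.2 ± 1.07 CPM in stimulated Sin3Bsg1, from 7 and 3 counts over the 3 unstimulated libraries. Between genotypes with IFNγ, 0 of the 16 were called by edgeR or DESeq2, at a median of 0.092, and 2 had an unadjusted p under 0.05, 1 of them higher in Sin3Bsg1. Without IFNγ 1 was called, Bst2, a membrane protein that tethers virions, at 0.46. In the untreated experiment 9 were tested, with 2 higher, led by Oasl1 at 0.73, and 2 lower, led by Oas3 at -0.71.

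The genes with profiles most like those of the members over the 4 group means were found by Euclidean distance of centered log2 CPM values, among 9993 genes with a mean of at least 5 CPM outside the lists. Closest to Irf1 were Parp9, at a distance of 0.081, and the immunoproteasome subunit Psmb10, at 0.14. Parp9 had mean levels of 25.6 CPM without IFNγ and 286 CPM with IFNγ in sgCtrL, and 25.5 and 286 CPM in Sin3Bsg1. Closest to Irf2 were the lysyl-tRNA synthetase gene Kars (0.060) and Arid5a (0.062), and closest to Irf3 were Atxn2l (0.010) and Herpud2 (0.012). Irf7 lay closest to the MHC class I gene H2-D1 (0.11) and to Ube2l6 (0.20), which encodes the conjugating enzyme for Isg15. Irf9 lay closest to the proteasome activator subunit Psme2 (0.13) and to Neurl3 (0.17). Psme2 was at 42.5 CPM in sgCtrL and 51.5 CPM in Sin3Bsg1 without IFNγ, and at 221 and 269 CPM with IFNγ. Batf2 was farther from its neighbors, Olfr56 (0.28) and Ifit1bl1 (0.43). Ifit1bl1 was at 43.4 CPM in stimulated sgCtrL and 71.1 CPM in stimulated Sin3Bsg1. The symbol Olfr56 belongs to a locus that overlaps Ifi47 in GENCODE vM39, so its counts are uncertain.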

How the data were processed

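RNA-seq of 16 libraries was used. The authors deposited estimated counts per gene, not normalized, in 2 tables, with gene lengths and group means (not used). The study's methods name HISAT2, mm9 and featureCounts, while the submitters' processing notes name fastp, HISAT2, StringTie, DESeq2 and mm39. The tables hold no coordinates, and versions and strand setting are not given in the sources used here. The control columns carry a lacZ guide name and were taken as sgCtrL, the only other guide. 324 features of the untreated table are assembled loci without a gene ID.

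Counts were rounded. Tests used edgeR 4.0.16 (TMM, filterByExpr, glmQLFit and glmQLFTest in R 4.3.3, 1 factor with a level per group, each table fitted on all its libraries), with Benjamini-Hochberg adjustment over all genes tested and a threshold of 0.05. DESeq2 1.42.0 was an alternative, and the scripts were tested on simulated data. CPM used TMM-scaled totals, and TPM used the deposited lengths. Intervals are 95%. From each list, the gene with the largest change past the threshold in each direction was named, with the 2 nearest profiles per member (log2 of CPM + 0.5) and Sin3b. Cxcl9 and Ifi44 are given as levels where unstimulated counts were near 0. The members and lists were chosen with earlier results of these data known. Protein sequences were not compared.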

Additional observations from a re-analysis of the deposited data

How the results depend on the processing

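Other size factors, no filter, a stricter filter, DESeq2, fits on the libraries of 2 groups, a replicate block and leaving out each library gave 541 values of the members' log2 fold changes, of which 518 kept their direction and their side of the threshold, 7 gained a call (Irf7 without IFNγ and Irf1 untreated) and 16 changed sign, all of them of values whose test was not passed. The cause was not tested. Of the 541 values, 17 in each genotype are the rise of Batf2 with IFNγ. They carry no weight, since Batf2 passed the filter through its IFNγ groups alone. For Irf3 the change by IFNγ ran from -0.041 to 0.17 in sgCtrL and from -0.015 to 0.091 in Sin3Bsg1 when a library was left out, its interaction from -0.12 to 0.082 (-0.012 with RLE size factors, -0.0017 with no filter, -0.014 with DESeq2), and its untreated genotype effect from -0.019 to 0.013. Without IFNγ the genotype effect ran from -0.011 to 0.094 for Irf2 and from -0.0049 to 0.028 for Irf1. Members called without IFNγ numbered 0 to 1 when a library was left out and 1 with no filter and with DESeq2. Untreated they numbered 0 to 1 and 1 with at least 10 counts in every library. With IFNγ present, 1 member was called under that stricter filter, which drops Batf2 because of its unstimulated libraries. Genes called for the interaction numbered 17, from 1 to 33 when a library was left out, 110 with no filter and 32 with DESeq2. In fits on 2 groups alone 3996 genes were called between genotypes without IFNγ (2568 in the fit on all groups) and 1500 with IFNγ (2464). The inductions of Irf1, Irf2, Irf7 and Irf9 kept their calls under every alternative, as did the higher Irf9 in stimulated Sin3Bsg1 (adjusted p 0.0032 to 0.038) and, where it was tested, the higher Batf2 (adjusted p 4.2e-11 to 0.00050).

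Libraries with the same number did not clearly deviate together (correlations of -0.029 to 0.12 over 18 pairs, 1 of them over 0.1, and 0.013 in the untreated table). With 2 or 3 libraries per group this check cannot show whether they shared a culture or batch, and the labels do not say. With the number as a replicate block, genes called were 4400 and 4207 for IFNγ in sgCtrL and Sin3Bsg1, and 13 for the interaction. Between genotypes they were 2511 without IFNγ, 2388 with IFNγ and 4710 untreated. Members called were 0 for the interaction, 0 without IFNγ, 2 with IFNγ (Batf2 included) and 0 untreated, as without the block. By length or not, the order of the members differed only for Batf2 and Irf9 with IFNγ, where by CPM Irf9 ranked 3 in sgCtrL and 2 in Sin3Bsg1 and Batf2 ranked 4 in both. Requiring a further A in the ISRE core left Irf2 as the single member with a match.

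Depth limits Irf7 without IFNγ, at 28 to 80 counts per library, allows no genotype comparison of Batf2 without IFNγ, and leaves Irf4, Irf5 and Irf8 unmeasured. With 2 or 3 libraries per group and 1 guide, effects of the guide or the line cannot be told apart from those of Sin3B loss.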
